A study of Mus musculus with 2 samples.

Results

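ATP-binding cassette (ABC) genes were examined in liver RNA of mice with liver fibrosis given recombinant TSG-6 or its vehicle. The members were all mouse genes with an official symbol of Abc, a family letter from a to g and a number: 50 genes of a RefSeq gene table fitted the name, and 49 of them, among 20284 genes named on the array, had a probe whose accession was one of their transcripts. The exception was Abca16. ABC genes with other names, such as Cftr, Tap1 and Tap2, fall outside the rule. Members were sorted by known site in the hepatocyte into 8 canalicular, 6 basolateral and 36 other genes, 35 of the last on the array.

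Both groups were male C57BL/6 mice with fibrotic livers. Mice of one group received recombinant TSG-6 protein (labelled Rh_TSG-6) by intravenous injection, the controls received PBS, and liver RNA was taken 2 weeks later. In each group, RNA from 3 mice was combined in equal amounts after separate extraction, and each pool was hybridised to 1 one-colour array, so there was no replicate, no test and no p-value. Age, dose and the way fibrosis was induced are not given in the sources used here, and healthy liver was not analysed here. Values below are the processed spot signal as a percentage of the array's 75th percentile signal (scaled signal), and a difference is log2 of the TSG-6 value over the PBS value. A gene was measured when its probe was well above background on both arrays. The spot-to-spot SD of a difference was 0.13 over 327 probes with repeated spots, which leaves out all variation between mice. Levels of different probes are not on one scale, so a probe, or a sum over the probes of a marker list, was set only against itself on the other array.

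ABC proteins use ATP to move substrates across membranes. In the hepatocyte, canalicular members secrete bile salts, phospholipid, sterols and conjugates into bile. Basolateral members return conjugates and bile acids to blood or load lipid onto apolipoproteins, and several of them are known to be induced when bile flow is impaired. Other members work in peroxisomes, mitochondria and lysosomes, and those of families E and F are soluble ATPases that act on ribosomes.

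Of the 50 genes, 39 were measured on both arrays. Another 2 were well above background on the TSG-6 array only, 1 on the PBS array only and 2 on neither. A further 5 had only a spot with an outlier flag on at least 1 array, and 1 had no matched probe. Among the 39 measured members, 4 were lower in the TSG-6 pool by 2-fold or more (10.3%, against 4.29% of the 15151 genes measured) and 1 was higher by 2-fold or more (2.56%, against 2.94%). In either direction the share was 12.8% of members and 7.23% of all genes. The lower genes were Abcc12, Abcc4, Abcc1 and Abcb1b, and the higher one was Abca6. The median difference was 0.19 over the members and 0.08 over all genes, and 25 members lay above 0 and 14 below.

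These counts moved with the scaling of the arrays. With the percentile taken over spots without an outlier flag, 1 member was 2-fold lower (Abcc12) and 1 higher. Abca6 was under 2-fold with quantile, median, loess and spike-in scaling, which left 0 higher. Over all genes past 2-fold, the higher share was 40.7%, against 73.0% with the percentile of unflagged spots, 33.1% with quantile, 29.5% with median, 28.6% with loess and 13.8% with spike-in scaling. At a smaller size of 1.5-fold, 4 members were higher (10.3%, against 10.5% of all genes) and 5 lower (12.8%, against 10.3%), shares near those of the array as a whole.

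**Figure D1:**
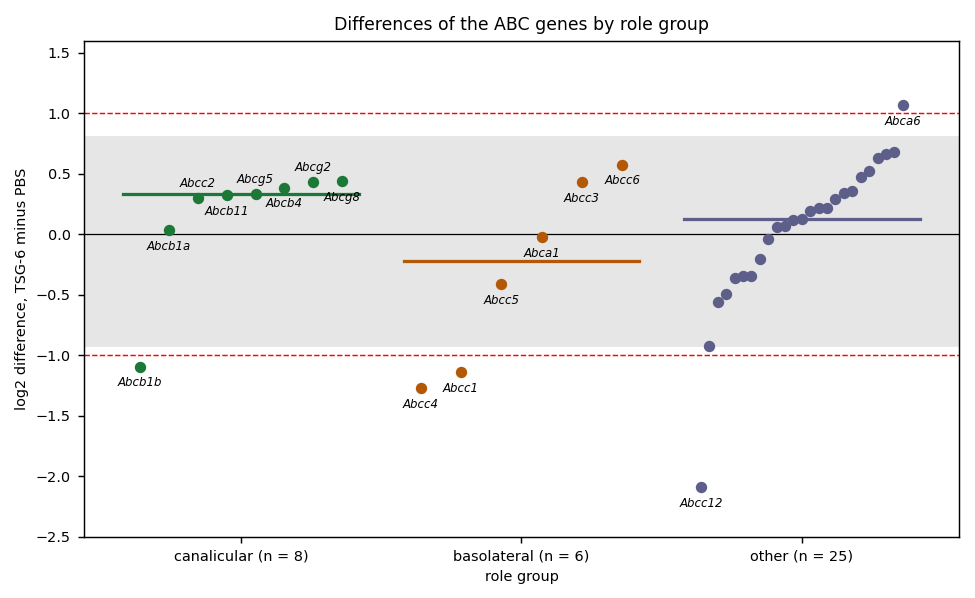
Log2 difference of TSG-6 minus PBS (vertical axis) for the 39 measured ABC genes in 3 role groups, 1 point per gene, with a coloured bar at each group's median. The grey band holds the central range of all genes from the 5th percentile (-0.92) to the 95th percentile (0.81), and dashed lines mark 2-fold; Abcb1b, Abcc1, Abcc4 and Abcc12 lie below the lower line and Abca6 above the upper one.

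Of the canalicular genes, 7 of 8 lay between 0.04 and 0.44, while 8708 of the 15151 genes measured lay above 0. The other gene, Abcb1b, was past 2-fold on the lower side, as were 4.29% of all genes. The median of the group was 0.33, or 0.25 above the median of all genes. No member was 2-fold higher, against 2.94% of all genes. Abcb11 encodes the bile salt export pump; its scaled signal was 946 in the PBS pool and 1186 in the TSG-6 pool, a difference of 0.33. Abcb4 encodes the phospholipid flippase that protects bile ducts from bile salts, with 1255 and 1639.6 (0.39). Abcc2, the exporter of bilirubin conjugates and glutathione, stood at 508 and 625 (0.30). Each of these 3 genes of bile formation was higher in the TSG-6 pool by less than 1.5-fold. With spike-in scaling Abcb11 and Abcc2 lay below 0, at -0.0082 and -0.035. Under normexp, quantile, loess and the other scalings all 3 lay above 0. Filters on dim probes, kept flags and the mean over probes cannot move these single-spot values.

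The half-transporters Abcg5 and Abcg8 form one sterol exporter as a heterodimer. Abcg5 had a scaled signal of 507 in the PBS pool and 639 in the TSG-6 pool, and Abcg8 had 11.3 and 15.3. Their differences were 0.34 and 0.44. Abcg2, a homodimeric exporter of urate and xenobiotics, stood at 472 and 635 (0.43).

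Abcg5 and Abcg8 lie head to head, and RefSeq (GRCm38.p6) places 109 bases between the start of Abcg5 on the minus strand and a start of Abcg8 on the plus strand. This stretch is shown because it precedes the Abcg5 start and this Abcg8 start. It is chr17:84683012-84683120, plus strand, with capitals on 2 matches to GATAA and 1 to TATAAA, all 3 on the minus strand, the strand of Abcg5. RefSeq lists a further Abcg8 start farther upstream, whose window is not shown. That window holds no match to GATAA or TATAAA, so the 3 matches do not precede that start.
Abcg5-Abcg8: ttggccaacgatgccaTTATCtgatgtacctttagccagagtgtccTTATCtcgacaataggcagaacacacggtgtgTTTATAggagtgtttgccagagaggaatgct
Of 32817 windows of 250 bases before a RefSeq start, 22.6% hold GATAA and 12.4% hold TATAAA on either strand.

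The multidrug exporters Abcb1a and Abcb1b divide between them the role that a single gene has in humans, and they are neighbours of Abcb4 in the genome. Abcb1a had a scaled signal of 90.9 in the PBS pool and 93.3 in the TSG-6 pool, a difference of 0.04. Abcb1b had 35.1 and 16.4, 2.13-fold lower in the TSG-6 pool (-1.09). Abcb1b minus Abcb1a was -1.13. Most other settings cannot move this gap between single-spot probes; normexp, quantile and loess can, and under them it reached -1.18. Abcb1b itself was at -0.80 with the percentile of unflagged spots, under 2-fold. Each gene has 1 probe with 1 spot, and the transcripts are similar in sequence, so the share of signal each probe takes from the other gene is unknown.

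The 250 bases before the RefSeq start are shown for this unequal pair, for Abcc4, the basolateral gene with the lowest difference, and for Abcb11 as a canalicular gene near the group median. The GC box was searched as GGGCGG, the CCAAT box under its own letters, the half-site of nuclear receptors as AGGTCA, the GATA site as GATAA, the TATA box as TATAAA and the AP-1 site as TGANTCA. Both strands were searched, and capitals mark every match. The windows are chr5:8566841-8567090 (plus strand) for Abcb1a, chr5:8797897-8798146 (plus strand) for Abcb1b, chr14:118706220-118706469 (minus strand) for Abcc4 and chr2:69342617-69342866 (minus strand) for Abcb11, on GRCm38.p6. Abcc4 has a further RefSeq start, and the one farthest upstream was used.
Abcb1a: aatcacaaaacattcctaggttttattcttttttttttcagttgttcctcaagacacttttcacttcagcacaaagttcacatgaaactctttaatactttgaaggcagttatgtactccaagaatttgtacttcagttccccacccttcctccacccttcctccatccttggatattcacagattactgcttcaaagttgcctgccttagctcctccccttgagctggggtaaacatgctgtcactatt
Abcb1b: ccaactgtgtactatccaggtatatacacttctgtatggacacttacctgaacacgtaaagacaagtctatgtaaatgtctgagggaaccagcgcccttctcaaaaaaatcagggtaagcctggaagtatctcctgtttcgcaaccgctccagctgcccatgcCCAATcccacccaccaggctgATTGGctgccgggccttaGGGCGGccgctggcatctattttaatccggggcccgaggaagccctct
Abcc4: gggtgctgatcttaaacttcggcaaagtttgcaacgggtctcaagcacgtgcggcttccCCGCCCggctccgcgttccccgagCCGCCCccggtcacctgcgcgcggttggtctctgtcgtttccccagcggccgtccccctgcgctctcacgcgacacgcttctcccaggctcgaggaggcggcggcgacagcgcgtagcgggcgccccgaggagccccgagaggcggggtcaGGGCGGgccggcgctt
Abcb11: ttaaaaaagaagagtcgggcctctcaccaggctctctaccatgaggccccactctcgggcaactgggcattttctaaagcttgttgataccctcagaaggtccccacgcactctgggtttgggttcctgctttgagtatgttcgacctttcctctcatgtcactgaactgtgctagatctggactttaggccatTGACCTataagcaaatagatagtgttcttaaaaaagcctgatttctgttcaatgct
The Abcb1a window held no match to any of the 6 motifs, and 40.4% of its bases were G or C. Abcb1b held 2 matches to CCAAT and 1 to GGGCGG at 52.8% G or C. Abcc4 held 3 matches to GGGCGG at 72.0% G or C. In the Abcb11 window the only exact match was to AGGTCA, on the opposite strand as TGACCT, at 46.4% G or C. The letters aggcca end 1 base before TGACCT and differ from AGGTCA by 1 letter, so they were not counted. Abcb11 is a known target of the bile acid receptor FXR (Nr1h4), which binds inverted pairs of such half-sites. Binding to this window was not tested. GGGCGG occurred in 32.7%, CCAAT in 33.8%, AGGTCA in 14% and TGANTCA in 6.75% of all windows of this length, so single matches are common. RefSeq windows were matched for 38 of the 50 ABC genes, and Abcc1, Abcc6, Abcc3 and Abca6 were not among them.

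Basolateral genes were split. Of 6 measured, 2 were past 2-fold on the lower side (Abcc4 and Abcc1), against 4.29% of all genes. Another 2 lay above 0 (Abcc3 and Abcc6), as did 8708 of the 15151 genes measured, and none was 2-fold higher. The median difference was -0.22, or 0.29 below the median of all genes. Abcc4, an exporter of bile acids with glutathione, cyclic nucleotides and prostaglandins, had a scaled signal of 220.1 in the PBS pool and 91.0 in the TSG-6 pool, 2.42-fold lower (-1.27). Abcc1, an exporter of glutathione conjugates and leukotriene C4 that many cell types express, had 72.9 and 33.1, 2.20-fold lower (-1.14). With the percentile of unflagged spots these differences were -0.98 and -0.85, under 2-fold. Each rests on 1 probe with 1 spot.

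Abcc3, which exports bile acid and bilirubin glucuronides to blood, had 670.2 in the PBS pool and 904 in the TSG-6 pool, a difference of 0.43. Abcc3 and Abcc4 were therefore on opposite sides of 0, with Abcc4 minus Abcc3 at -1.71, and between -1.83 and -1.57 under normexp, quantile and loess, the settings that can move this gap. Abcc6, a hepatocyte transporter that releases ATP and is the source of plasma pyrophosphate, stood at 389.6 and 581 with its brighter probe (0.58) and at 43.7 and 93.3 with the other (1.09, past 2-fold). Both probes of Abcc6 were higher in the TSG-6 pool. Abca1, which loads cholesterol and phospholipid onto apolipoprotein A-I, was at 443 and 436, a difference of -0.03.

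Abcc5, an exporter of cyclic nucleotides, is the member with repeated spots. The probe it was read from had 39.2 in the PBS pool and 29.5 in the TSG-6 pool, a difference of -0.41. Over the 9 unflagged pairs of spots of this probe the SD was 0.076, and the mean was -0.42. A further 2 probes gave -0.49 and -0.41, and a dim one, at 1.39 and 2.03, gave 0.54. Of its 4 probes, 3 thus lay below 0.

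The medians of the canalicular and basolateral groups were 0.33 and -0.22, and that of the other genes was 0.12 over 25 measured. The order was the same under normexp, quantile and loess, which move genes by different amounts; a scaling by one constant cannot change it. The sign of each median depended on scaling. With spike-in scaling, which moved the median of all genes by -0.33, the canalicular median was -0.0037 with 4 of 8 genes above 0. With the percentile of unflagged spots, which moved it by 0.29, the basolateral median was 0.072 with 3 of 6 above 0. With 1 pool per group and overlapping ranges (-1.09 to 0.44 for canalicular and -1.27 to 0.58 for basolateral genes), no test of the difference between the groups could be made.

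**Figure D2:**
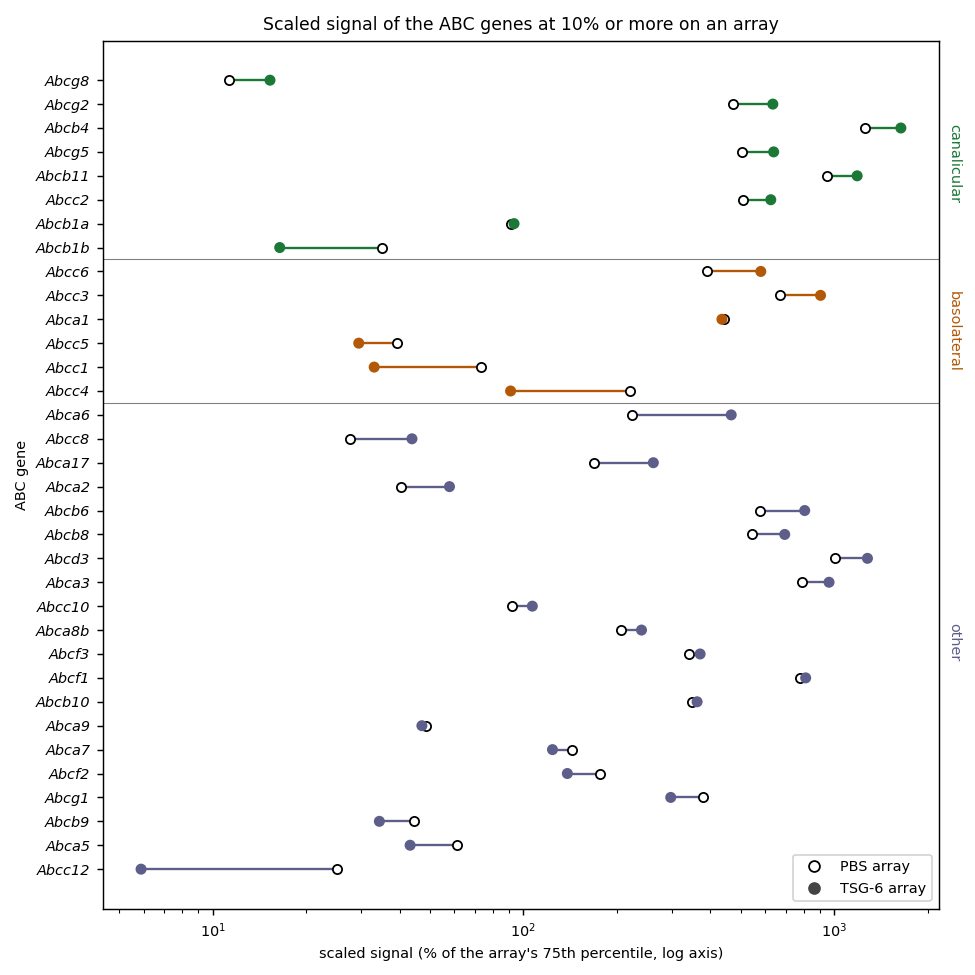
Scaled signal (horizontal log axis, percent of the array's 75th percentile signal) of the 34 measured ABC genes with at least 10% on an array, in the PBS pool (open circles) and the TSG-6 pool (filled circles), 1 array each, ordered within role groups by the difference. The long leftward lines are those of Abcb1b, Abcc1, Abcc4 and Abcc12, and the long rightward line is that of Abca6; positions of different genes along the axis are not comparable.

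Among A family lipid transporters outside the basolateral group, 10 of 15 were measured, with a median of 0.17 and 1 past 2-fold. Abca6 had a scaled signal of 222.9 in the PBS pool and 466 in the TSG-6 pool, 2.09-fold higher (1.07). It stands in a row of related neighbours, Abca8b, Abca8a, Abca9, Abca6 and Abca5, whose differences were 0.22, 0.12, -0.04, 1.07 and -0.50. The brighter probe of Abca5, a lysosomal lipid transporter, had 61.0 and 43.2, while its other probe had 40.9 and 14.9, 2.74-fold lower (-1.46). The 2 probes of Abca5 therefore disagreed on whether it passed 2-fold, and neighbours in this row did not differ alike.

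The lowest of these genes was Abca14, with a dim signal of 2.90 in the PBS pool and 1.53 in the TSG-6 pool (-0.92). Abca14 was past 2-fold under quantile, median, loess and spike-in scaling, at up to -1.26, and at -0.14 under normexp background correction. Abca17, a testis gene, stood at 169.3 and 262.0 with one probe (0.63), while its other probe was above background only on the PBS array. Abca3, the transporter of surfactant lipid in lung, was at 786 and 963 (0.29). Abca2, a transporter of the lysosomal membrane, gave 0.49 and 0.52 with its 2 probes, and Abca7, a phospholipid transporter of phagocytes, differed by -0.20.

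Near the detection limit, Abca13 and Abca15 were well above background in the TSG-6 pool only. Abca13 had 1.74 there against a floor of 0.762 on the PBS array, 2.29-fold above that floor, and Abca15 had 1.56, 2.05-fold above it. Abca4, the retinal transporter, was detected only on the PBS array, with 0.874 against a floor of 0.750 on the TSG-6 array, 1.17-fold above that floor. A floor is the higher of the dim probe's own value and the lowest value of any probe detected on that array. It is not a strict limit. Probes not well above background read 0.774 on the PBS array (Abca14) and 0.825 on the TSG-6 array (Abca17). Each of the 3 has a further probe that was well above background on neither array. Abca12 and Abcb5 were well above background on neither array.

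The largest difference among the 39 measured members belonged to Abcc12, a C family member with few known roles in liver. One probe had a scaled signal of 25.05 in the PBS pool and 5.89 in the TSG-6 pool, 4.26-fold lower (-2.09), and -1.56 under normexp. Its other probe was well above background on neither array, at 0.169 and 0.275. The 2 probes carry the same transcript accession, so a single probe stands behind this value. Abcc10, from the same family, stood at 91.9 and 106.9 (0.22).

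Among mitochondrial and heme-related genes, Abcb6, a porphyrin transporter, had 579 in the PBS pool and 804 in the TSG-6 pool (0.47). Abcb8 had 542 and 694 (0.35), and Abcb10, which supports heme synthesis, had 348 and 362 (0.06). All 3 were under 2-fold, and Abcb10 was below 0 under normexp, quantile, median, loess and spike-in processing. Abcd3, a peroxisomal importer of fatty acids, stood at 1008 and 1280.1 (0.34). It lay above 0 under every setting that could move it, but only at 0.010 with spike-in scaling. Abcd2 had flagged spots on both arrays, which read 106.5 and 72.5 (-0.56).

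The sterol exporter Abcg1, abundant in macrophages, stood at 379 in the PBS pool and 298 in the TSG-6 pool, a difference of -0.35. It was below 0 under all settings that could move it, but only at -0.059 with the percentile of unflagged spots. Abcg4 was at 2.68 and 1.82 (-0.56) with its brighter probe and differed by -0.03 with the other. The lysosomal peptide transporter Abcb9 had 44.3 and 34.4 (-0.37). The sulfonylurea receptor Abcc8, a subunit of potassium channels in endocrine cells, had 27.7 and 43.8 with one probe (0.66) and was well above background on neither array with the other. Differences of the soluble ATPases were small: Abcf1 0.06, Abcf3 0.12 and Abcf2, at 176 and 138.5, -0.35.

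Spots with an outlier flag were the only ones for Abcc9, Abcd2, Abcd4, Abce1 and Abcg3. Read with their flags, their differences were 0.26, -0.56, 1.13, -0.13 and -0.28, so 1 of the 5, Abcd4, passed 2-fold. Abcd4, a lysosomal protein of vitamin B12 transport, had 142.2 in the PBS pool and 310.3 in the TSG-6 pool, the latter from the flagged spot.

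**Figure D3:**
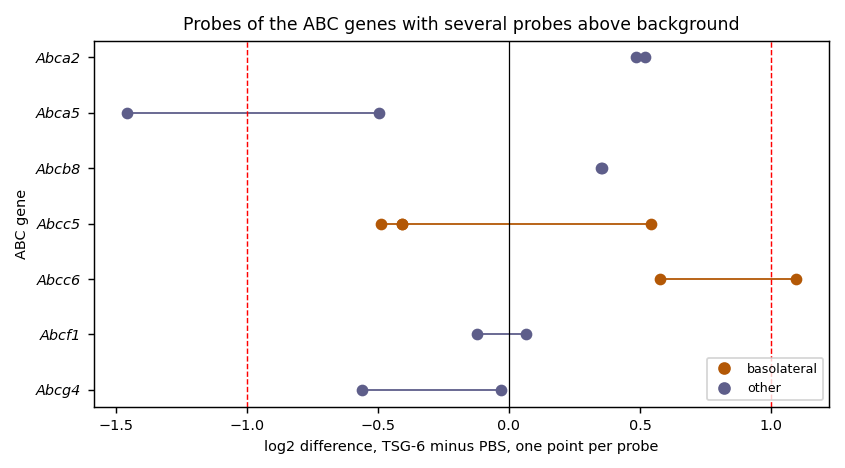
Log2 difference of TSG-6 minus PBS (horizontal axis) for each probe of the 7 ABC genes with several unflagged probes above background on both arrays, 1 point per probe, with dashed lines at 2-fold. The probes of Abcb8 and Abca2 nearly coincide, those of Abca5 span -1.46 to -0.50, and 1 probe of Abcc5 lies at 0.54 on the other side of 0 from the rest.

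Probe agreement could be read for 7 members. Probes lay on one side of 0 for 5 of them, and on both sides for Abcc5 and Abcf1. Of the 49 members on the array, 33 have a single probe, among them Abcb1b, Abcc1, Abcc4 and Abca6.

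**Figure D4:**
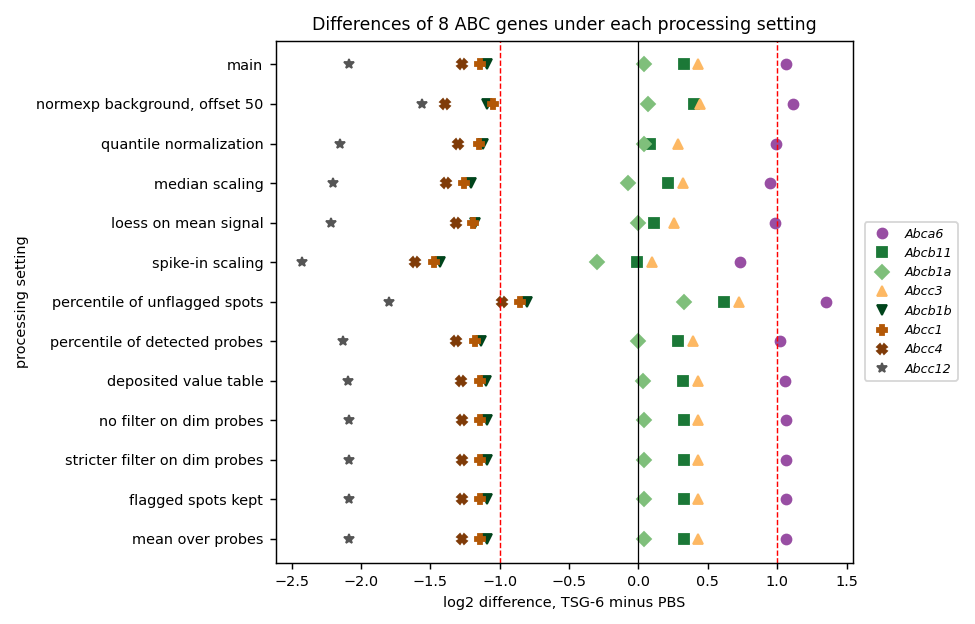
Log2 difference of TSG-6 minus PBS (horizontal axis) of 8 ABC genes under the reported processing (main) and 12 other settings (vertical axis), 1 marker per gene and setting, with dashed lines at 2-fold. Median, spike-in and percentile scaling shift all genes by one amount, while normexp moved Abcc12 to -1.56 and Abcc4 to -1.39; Abcc12 lies left of the lower line in each setting, Abcc4, Abcc1 and Abcb1b cross it with the percentile of unflagged spots, and Abca6 crosses the upper line in 4 settings.

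Genes that work with these transporters were read from lists of 5 kinds. Over the 15151 genes measured, 2.94% were 2-fold higher, 4.29% were 2-fold lower and 8708 lay above 0, with a median of 0.08. Regulators of hepatic ABC genes had 0 of 13 measured past 2-fold, a median of 0.24 and 12 above 0. The highest was Nr1i3, the xenobiotic receptor CAR, at 0.73, and the lowest was Nr0b2, the FXR-induced repressor SHP, at -0.67, on the other side of 0 from Nr1h4 (FXR) at 0.58. Carriers of bile acids and organic anions had 2 of 9 higher past 2-fold, none lower and a median of 0.57. Slc51b, a subunit of the basolateral bile acid exporter, went from 29.3 to 122.4 (4.18-fold higher) and Slc22a7 from 282 to 654 (2.32-fold higher). Slc51a, the partner subunit of Slc51b, was dim on both arrays, at 1.26 and 0.999 (-0.33). The lowest of them was Slc10a2, the apical bile acid carrier of bile duct and ileum, at -0.37.

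Proteins that anchor or deliver transporters at the canaliculus had 0 of 9 past 2-fold and a median of -0.11, from Ezr, the membrane linker ezrin, at -0.53 to the kinase gene Stk11 at 0.51. Sterol efflux partners and LXR targets had 0 of 9 past 2-fold and a median of 0.31, from Srebf1 at -0.73 to Lcat, the enzyme that matures HDL, at 0.54. Of the ABC genes with other names, the peptide transporters of antigen presentation Tap1 and Tap2 differed by -0.12 and 0.16. Cftr, the chloride channel of bile ducts, was well above background on neither array.

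Marker lists stand beside all 15151 genes measured, of which 2.94% were 2-fold higher, 4.29% were 2-fold lower and 8708 lay above 0. Hepatocyte markers were read as a check of the liver label, and 8 of 10 were measured. All 8 lay above 0, with a median of 0.39 and a summed scaled signal of 15629 in the PBS pool and 21389 in the TSG-6 pool; Cyp2e1 was 2.27-fold higher. The hepatocyte median was close to that of the canalicular genes (0.33). So were those of the sterol efflux partners and LXR targets (0.31) and of endothelium markers (0.27). In bulk tissue, fewer cells of a type and less RNA per cell cannot be told apart. Markers of stellate cells and myofibroblasts, 7 of 8 measured, were all below 0, with a median of -0.58, sums of 4046 and 2440.0, and Acta2 5.55-fold and Des 2.35-fold lower. Cholangiocyte markers, 6 of 8 measured, had a median of -0.16, with 2 above 0, 4 below and none past 2-fold. Their sums were 1573 and 945. The Spp1 probe gave 1418 and 806 of that signal, which is not a share of transcripts. Differences ran from -0.82 for Spp1 to 0.74 for Sctr. The part of these markers in the values of Abcc1, Abcc4 and Abcb1b was not tested.

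Other marker lists were as follows, beside 2.94% of all genes 2-fold higher and 4.29% 2-fold lower. Macrophage markers had a median of 0.19 over 6 of 8 (sums 5943 and 6819), endothelium 0.27 over 7 of 7 (2202 and 2639) and T and B cells -0.10 over 7 of 7 (286 and 267), with none past 2-fold. Neutrophil markers had a median of 2.78 over 7 of 7 (sums 3110.2 and 5846), and 4 were past 2-fold, led by Mpo (14.8-fold higher) and Ngp (12.7-fold higher). Erythroid markers had a median of 1.43 over 4 of 7 (sums 1909 and 2106), with Car1 5.14-fold and Klf1 4.01-fold higher and Epb42 well above background on neither array. Mural cell markers had a median of -0.12 over 4 of 5 (sums 144.8 and 130.5). Of these 4, 2 lay above 0 and 2 below, with Myh11 2.09-fold lower. The part of all these lists in the values of the ABC genes was not tested.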

How the data were processed

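Total liver RNA was measured on 2 one-colour Agilent arrays, 1 per group, each of pooled RNA of 3 mice; 0.2 ug was labelled with Cy3, per the labels' protocols. The deposited scanner files hold spot intensity as the processed signal of Agilent Feature Extraction 11.5.1.1 per the file headers (10.7 per the submitters' processing notes); the array was designed on mm9. The deposited value table holds log2 values that equal the log2 processed signal minus a constant within 0.001 for 100% of single-spot probes.

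Signals were divided by each array's 75th percentile over 59305 non-control spots (3158 and 2476). Spots with a non-uniformity or population outlier flag (3.40% and 6.44%) were left out, and replicate spots were averaged. Detection of a probe required 50% or more of its spots to be well above background (as were 74.0% and 75.5% of all spots; none was saturated). Each gene took its value from 1 probe, chosen first by the number of arrays that detected it and then by brightness. Accessions were matched to a RefSeq table of GRCm38.p6 for names (26762 of 55681 probes), and promoter windows are RefSeq's on that build. A gene was called at 2-fold, and no test was possible with 1 array per group. Members, roles and lists were chosen with earlier results of these data known. Values were printed for every canalicular and basolateral gene, other members past 2-fold or on 1 array, the extremes of each role group, and list genes past 2-fold or at the extremes; further members were named after their values were seen. Steps were tested on simulated data. Normexp (offset 50 on the median signals), quantile and loess (span 0.3) used limma 3.58.1 in R 4.3.3; the rest used Python 3.11.15. Some genes are counted but not reported here by name. The other settings are in the closing section.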

Additional observations from a re-analysis of the deposited data

Results flagged for a closer look

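Abcd4 is absent from the comparison because its only spot on the TSG-6 array carries an outlier flag. Read with the flag, its log2 difference was 1.13, past 2-fold above the PBS pool, in data the comparison does not use. The cause of the flag was not tested.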

How the results depend on the processing

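Besides the reported processing, 12 settings and a smaller size rule were run. No member past 2-fold changed sign under normexp, quantile or loess. The other scalings shift all genes by one amount, between -0.33 and 0.29, which cannot reverse a difference past 2-fold. Filters on dim probes, kept flags and the mean over probes could not change the values of the members past 2-fold. Relative to all genes, the medians of the canalicular, basolateral and other ABC genes (0.25, -0.29 and 0.046) cannot move under scaling by one constant (median, spike-in, both other percentiles and, in effect, the deposited table). Under the remaining settings they ran from 0.16 to 0.28, from -0.30 to -0.18 and from 0.0095 to 0.10. The count of members 2-fold lower was 4 or 5 except with the percentile of unflagged spots, where it was 1. Over all genes that setting called 1018 higher and 376 lower, against 446 and 650 as reported, 207 and 1295 with spike-in scaling, 290 and 402 under normexp and 906 and 956 with no filter on dim probes. The count 2-fold higher was 0 with quantile, median, loess and spike-in scaling, 3 with no filter on dim probes (Abca13 and Abca15 added), 2 with flagged spots kept (Abcd4 added) and 4 at 1.5-fold. Of the other lists, relative to all genes, sterol efflux partners went from 0.23 to 0.011 and anchoring proteins from -0.18 to -0.32 with quantile normalization. ABC genes with other names went from -0.05 to 0.11 with no filter, which adds the undetected Cftr. Carriers went from 0.49 to 0.64 with the stricter filter, 0.63 with flagged spots kept and 0.73 with the mean over probes. The cause was not tested elsewhere. The percentile of detected probes and the deposited value table moved none of these results. No paired analysis was possible because each group is 1 pool, and for the same reason no replicate could be left out. Signal near background limits Abca4, Abca13, Abca14, Abca15 and Abcg4.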
